A study of Mus musculus with 41 samples.

Results

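The genes described here are 51 DNA repair genes of the mouse, which a fixed list of symbols names by pathway, among the 55453 genes listed for the series. They comprise 12 genes of homologous recombination, 8 of the Fanconi pathway, 9 of break sensing and checkpoint signalling, 6 of end joining, 9 of base excision and single-strand break repair, 2 of mismatch repair, 4 of nucleotide excision and 1 translesion polymerase. Rectal tumours were grown in female C57BL6 mice from MC38-luc, a luciferase-marked line of mouse colon adenocarcinoma. Irradiated tumours were given 5 fractions of 5 Gy, a fraction per day from day 9 to day 13, untreated tumours (UT) received none, and all were harvested on day 14, so the irradiated cells were collected a day after the last fraction. CD45+ CD11b+ cells were sorted into tumour-associated macrophages (TAM; F4/80+, negative for Ly6C and Ly6G), inflammatory monocytes (Ly6C+ and Ly6G-) and granulocytes (positive for both), with 10 irradiated and 5 untreated TAM libraries, 9 irradiated and 5 untreated inflammatory monocyte libraries, and 7 irradiated and 5 untreated granulocyte libraries. The 41 libraries carry 15 tumour numbers, irradiated and untreated libraries have different numbers, and the subsets of a tumour share its number.

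Cells keep separate repair routes for separate lesions. Double-strand breaks, the most dangerous product of ionising radiation, are sensed by the MRN complex and the kinases ATM and ATR, and are either ligated end to end by the Ku and ligase IV machinery or copied from the sister chromatid by homologous recombination, which works in S and G2 phase. The Fanconi pathway removes crosslinks at stalled forks, base excision replaces oxidised or deaminated bases and seals single-strand breaks, mismatch repair follows the replication fork, and nucleotide excision removes bulky adducts. Many recombination and Fanconi genes are transcribed mainly in dividing cells, whereas end joining and nucleotide excision also serve cells that do not divide, such as most mature macrophages and neutrophils.

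The values are those of the authors' 3 deposited tables, 1 per subset, each giving the normalised count averaged over libraries, a log2 fold change of irradiated over untreated that reads as shrunken towards 0, a Wald statistic (the effect over its standard error), and p-values before and after adjustment. Single libraries were not analysed here, so depth per library is unknown, no SD or overlap of groups can be given, and the Wald statistic stands for the error. A gene is called at an adjusted p under 0.05, with its direction from the Wald statistic. All 51 members were tested in all 3 comparisons. The replicates are separate tumours, and the libraries are bulk RNA of sorted cells, in which fewer cells of a kind and less RNA per cell cannot be told apart.

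In irradiated TAM, 26 of the 51 repair genes fell and none rose. This is 51.0% of the members, beside 12.5% of all 16851 genes tested in TAM that were lower and 13.9% that were higher in irradiated tumours. The list was chosen with earlier results of these data known, so the difference is described and was not tested. The members' median log2 fold change was -0.74, against 0.03 over all genes tested, and 44 of the 51 had a Wald statistic below 0. By pathway the count ran from 9 of 12 recombination genes to none of the 4 nucleotide excision genes, a difference that was not tested. Of the 26, 18 differed by 1 or more on the log2 scale. With each Wald statistic scaled by the robust SD of the statistics over genes with mean counts of 50 or more, which was 2.72 in TAM, 0 of the 26 calls were left. That SD includes the genes that responded to irradiation. How many of all genes stayed called under this scaling was not computed, so the loss cannot be read as particular to repair genes.

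**Figure D1:**
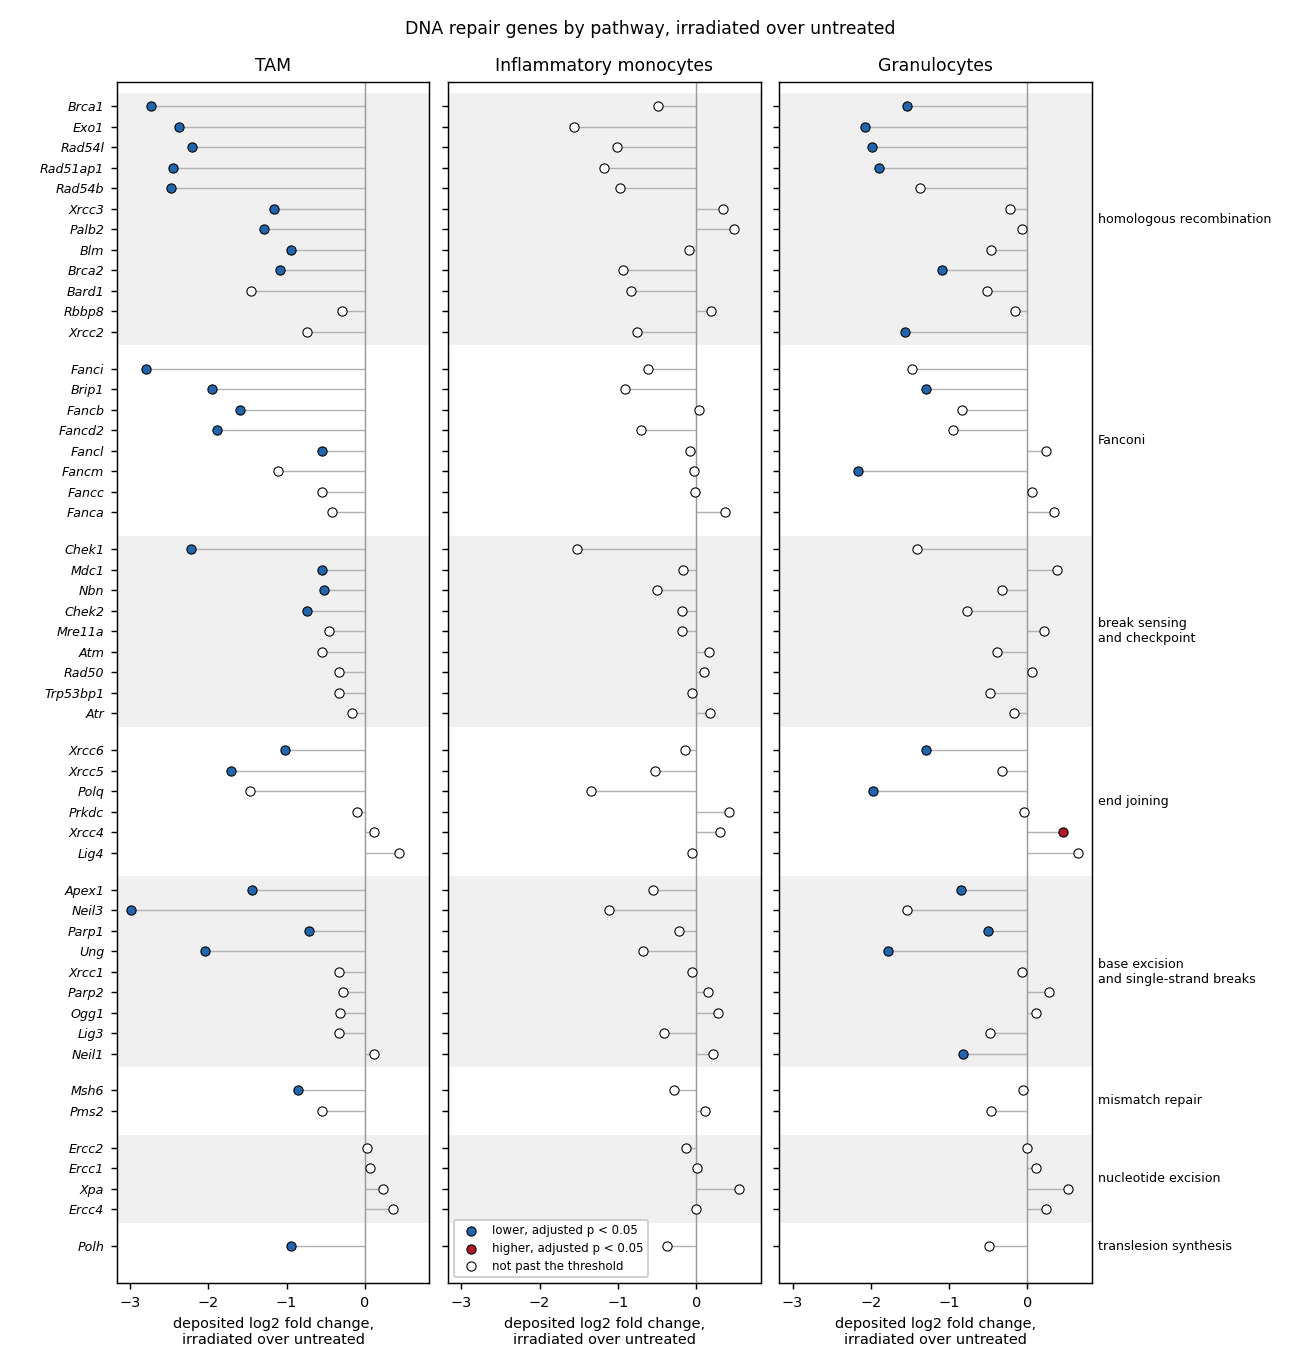
Deposited log2 fold changes of irradiated over untreated for the 51 repair genes (rows, by pathway and ordered by the TAM Wald statistic) in the 3 sorted subsets (panels); filled points passed an adjusted p of 0.05. Filled points lie left of 0 in TAM (26 genes), are absent in inflammatory monocytes, and comprise 14 lower genes and 1 higher gene in granulocytes.

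Among recombination genes, Brca1, whose product directs resected breaks into recombination, had -2.74 on the log2 scale in TAM in the authors' deposited table, with a Wald statistic of -4.96 and an adjusted p = 1.5e-05. Exo1, a nuclease that lengthens the resected end, had -2.38 (adjusted p = 4.4e-05), and Rad54l, a motor protein of strand invasion, -2.21 (adjusted p = 7.5e-05) in the authors' deposited table. These falls correspond to levels in irradiated TAM of 0.15, 0.19 and 0.22 times those in untreated TAM on the scale of the deposited folds. Rad51ap1 and Rad54b, which also assist strand invasion, had log2 fold changes of -2.45 and -2.48 in the authors' deposited table. Smaller falls were listed for Palb2, the bridge between the BRCA1 and BRCA2 proteins (-1.29), the recombinase paralogue Xrcc3 (-1.16), the recombinase loader Brca2 (-1.09) and the helicase gene Blm (-0.95), by the authors' deposited table. Bard1, the partner of Brca1, had -1.46 in the authors' deposited table but did not pass (adjusted p = 0.10). Its mean normalised count, which is not specific to TAM, was only 11.6. Rbbp8, which encodes CtIP and starts resection, and Xrcc2 did not pass either, at -0.29 and -0.74 in the authors' deposited table.

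In the Fanconi group 5 of 8 genes fell in irradiated TAM, and no other had a Wald statistic above 0. Fanci, a subunit of the clamp that is ubiquitinated at a crosslink, had -2.79 on the log2 scale (adjusted p = 1.1e-05, Wald statistic -5.02), and its partner Fancd2 -1.90 (adjusted p = 0.018), in the authors' deposited table. The helicase gene Brip1 had -1.96, the core complex gene Fancb -1.60 and Fancl, the ubiquitin ligase of the pathway, -0.55, per the authors' deposited table. The last of these 3 has an adjusted p of 0.036, and 0.067 when every gene with a p-value is adjusted for. Fanca and Fancc, also of the core complex, and the translocase gene Fancm did not pass, with -0.42, -0.54 and -1.11 in the authors' deposited table, and Fancm (adjusted p = 0.072) passed after re-centring on the median (0.043).

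Of the sensor and checkpoint genes 4 of 9 fell in irradiated TAM, and the median of the 9 was -0.52 on the log2 scale. Chek1, the kinase that acts after ATR when forks stall, had the lowest value of the 9, -2.22, in the authors' deposited table (adjusted p = 0.0019). Chek2, the kinase that acts after ATM, had -0.74, Mdc1, the scaffold that binds phosphorylated H2AX, -0.55, and the MRN subunit gene Nbn -0.52 in the authors' deposited table, with adjusted p of 0.047, 0.014 and 0.022. The other MRN subunit genes, Mre11a and Rad50, had -0.46 and -0.33 and did not pass, by the authors' deposited table. Atm, Atr and Trp53bp1, whose product favours end joining, had -0.55, -0.17 and -0.33 in the authors' deposited table, none of them past the threshold. The call for Chek2 was lost when every gene with a p-value was adjusted for (0.087). That for Mre11a (adjusted p = 0.064) was gained with low means (under 50) left out (0.048) and after re-centring on the median (0.038).

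End joining was split in irradiated TAM. Xrcc6 and Xrcc5 encode Ku70 and Ku80, the ring that binds a broken end, and both fell, at -1.02 (adjusted p = 2.0e-07, Wald statistic -5.85) and -1.71 (adjusted p = 0.0016, Wald statistic -3.74) in the authors' deposited table. The later factors did not pass, with -0.10 for Prkdc, the DNA-dependent kinase, 0.11 for Xrcc4, the ligase scaffold, and 0.44 for the ligase gene Lig4 in the authors' deposited table. Polq, the polymerase of the alternative, microhomology-based route, had -1.47 (adjusted p = 0.11) in the authors' deposited table.

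In base excision, 4 of 9 genes fell in irradiated TAM. Apex1, the endonuclease that cuts at abasic sites, had the lowest Wald statistic of all 51 members (-6.88), rank 104 from the lowest among the genes tested, and -1.44 on the log2 scale (adjusted p = 5.8e-10) in the authors' deposited table. Neil3, a glycosylase linked to replication forks, had the lowest log2 fold change of any member, -2.99 (adjusted p = 4.1e-05), and the uracil glycosylase gene Ung -2.04 (adjusted p = 0.0032), in the authors' deposited table. Parp1, the main sensor of nicks, fell by less, at -0.72 (adjusted p = 2.3e-04) in the authors' deposited table, and its relative Parp2 did not pass (-0.28). The nick scaffold Xrcc1 (-0.34), the ligase gene Lig3 (-0.33), Ogg1, the glycosylase for oxidised guanine (-0.32), and the glycosylase gene Neil1 (0.12) did not pass in the authors' deposited table.

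The remaining routes held 7 genes. In mismatch repair, Msh6, of the complex that recognises base mispairs, fell with -0.85 (adjusted p = 5.5e-06, Wald statistic -5.18), while Pms2 had -0.55 (adjusted p = 0.23), in the authors' deposited table. Polh, the polymerase that bypasses ultraviolet damage, had -0.95 (adjusted p = 0.017) in the authors' deposited table. The nucleotide excision genes were the only group of more than 1 gene with no call, and all 4 had a Wald statistic above 0. The authors' deposited table gave 0.02 for the helicase gene Ercc2, 0.06 and 0.36 for Ercc1 and Ercc4, whose products form 1 nuclease, and 0.23 for the damage verifier Xpa, with adjusted p between 0.19 and 0.97.

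**Figure D2:**
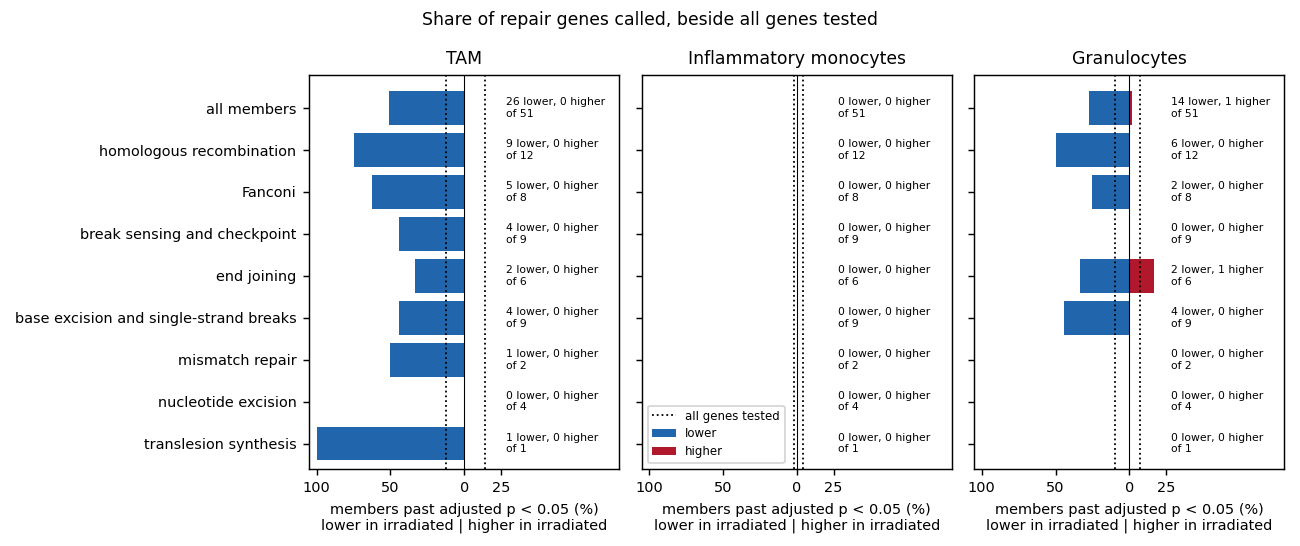
Percentage of repair genes past an adjusted p of 0.05, lower (left of 0) or higher (right of 0) in irradiated cells, for all members and each pathway (rows) in the 3 subsets (panels); dotted lines give the share of all genes tested. In TAM 51.0% of members were lower beside 12.5% of all genes, and in granulocytes 27.5% beside 9.9%.

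Because so many members fell together in TAM, their promoters were read for letters of the cell-cycle factor E2F. Promoters of 43 of the 51 genes were matched by symbol in a RefSeq table of the build GRCm38.p6, and the window ran from 250 bases before the transcription start to 30 after it. E2F-type letters were taken as TTTGGCGC, TTTCCCGC, TTTCGCGC, TTTGGCGG or TTTCCCGG on either strand. They were found in 5 of 22 promoters of members lower in TAM and in 1 of 21 promoters of members not called there, against 914 of 27025 promoters of all genes (3.38%). All 6 matches were TTTCCCGC. They are shown here because they are all the matches among the members, read in the direction of the motif with the match in capitals and up to 10 bases on either side.
Xrcc6: cccactcgcaTTTCCCGCttccaccccc
Msh6: tcctcccgacTTTCCCGCcagcggc
Mdc1: cttcagcctgTTTCCCGCcggtagccgc
Brca2: tgtgtgtctgTTTCCCGCtgtggcctaa
Chek2: gacgtcttggTTTCCCGCggctaatccc
Bard1: cgccgctcagTTTCCCGCtcaggaagtt

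These windows lie at chr15:82016313-82016340 (minus strand) for Xrcc6, chr17:87975055-87975079 (plus) for Msh6, chr17:35841472-35841499 (plus) for Mdc1, chr5:150522443-150522470 (minus) for Brca2, chr5:110839821-110839848 (minus) for Chek2 and chr1:71103164-71103191 (minus) for Bard1, all in GRCm38.p6. The first 5 genes were lower in irradiated TAM and Bard1 did not pass. The letters CCAAT, the box bound by the factor NF-Y, stood on either strand in 13 of the 22 promoters of lower members and in 11 of the 21 of members not called, against 36.6% of all promoters. The CHR letters TTTGAA, an element of late cell-cycle genes, were in 0 of the 22 and 2 of the 21, against 17.4%. None of these shares was tested against another. The promoters of all genes were not chosen to resemble those of repair genes. A match is a description of letters, and no binding was measured.

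The whole windows are given for the 4 members of smallest adjusted p in TAM that the table holds, 3 of which carry one of these motifs, with E2F-type and CCAAT letters in capitals and the plus strand shown. They lie at chr14:50924699-50924978 for Apex1, chr15:82016119-82016398 for Xrcc6, chr17:87974800-87975079 for Msh6 and chr7:79392088-79392367 for Fanci in GRCm38.p6. The Xrcc6 match starts 46 bases before the transcription start and that of Msh6 15 bases after it, while the promoter of Fanci, one of the most strongly lowered members, holds none of the motifs.
Apex1: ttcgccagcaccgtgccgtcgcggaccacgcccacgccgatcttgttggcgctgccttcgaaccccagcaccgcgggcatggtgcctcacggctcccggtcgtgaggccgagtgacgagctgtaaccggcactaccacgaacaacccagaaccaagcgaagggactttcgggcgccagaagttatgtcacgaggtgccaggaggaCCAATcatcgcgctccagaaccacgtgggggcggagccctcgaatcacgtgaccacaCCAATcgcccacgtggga
Xrcc6: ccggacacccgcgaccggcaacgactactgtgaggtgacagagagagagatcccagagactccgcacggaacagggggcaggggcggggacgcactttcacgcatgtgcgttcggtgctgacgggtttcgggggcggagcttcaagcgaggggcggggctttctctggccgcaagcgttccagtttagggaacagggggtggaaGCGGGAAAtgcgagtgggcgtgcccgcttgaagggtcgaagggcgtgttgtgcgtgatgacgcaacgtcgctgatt
Msh6: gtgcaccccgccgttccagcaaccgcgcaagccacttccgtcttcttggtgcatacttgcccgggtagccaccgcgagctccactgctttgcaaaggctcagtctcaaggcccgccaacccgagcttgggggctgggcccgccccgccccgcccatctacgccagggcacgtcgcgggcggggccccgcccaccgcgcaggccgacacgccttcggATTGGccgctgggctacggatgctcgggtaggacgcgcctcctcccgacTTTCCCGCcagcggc
Fanci: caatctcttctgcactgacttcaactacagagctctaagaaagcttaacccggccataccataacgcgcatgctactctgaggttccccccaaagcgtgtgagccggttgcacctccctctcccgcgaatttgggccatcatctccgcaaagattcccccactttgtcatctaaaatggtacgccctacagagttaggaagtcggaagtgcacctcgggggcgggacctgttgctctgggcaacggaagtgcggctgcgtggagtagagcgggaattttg

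In irradiated inflammatory monocytes no repair gene was called in either direction by the authors' DESeq2 test, beside 1.77% of 14506 genes tested that were lower and 4.13% that were higher. At an unadjusted p under 0.05, 6 members were lower (11.8%, beside 7.75% of all genes) and 2 were higher (3.92%, beside 11.9%). The 6 were Exo1, Brca2, Nbn, Chek1, Apex1 and Brip1, and the 2 were Xpa and Xrcc4. The smallest adjusted p belonged to Exo1, at -1.56 (adjusted p = 0.056, Wald statistic -2.92) in the authors' deposited table. It passed in 2 alternatives, at 0.047 with low means (under 50) left out and at 0.048 after re-centring on the median. Chek1 (-1.53), Brca2 (-0.94) and Apex1 (-0.55) had adjusted p of 0.14, 0.11 and 0.12, and Xpa (0.55) of 0.10, in the authors' deposited table. The members' median log2 fold change was -0.14, against 0.02 over all genes tested.

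Most members that fell in TAM lay nearer to 0 in inflammatory monocytes. Their log2 fold change was closer to 0 there for all 26, and for 23 the Wald statistic was below 0. Brca1 had -0.48 (adjusted p = 0.73), Fanci -0.62 (0.62) and Xrcc6 -0.14 (0.73) by the authors' deposited table. The other recombination genes called in some subset had -1.18 (Rad51ap1), -1.01 (Rad54l), -0.98 (Rad54b), -0.75 (Xrcc2), -0.09 (Blm), 0.34 (Xrcc3) and 0.49 (Palb2), and the other Fanconi genes -0.91 (Brip1), -0.70 (Fancd2), -0.08 (Fancl), -0.02 (Fancm) and 0.04 (Fancb), by the authors' deposited table. Of the 12 recombination genes 9 had a Wald statistic below 0 in this subset and their median log2 fold change was -0.79, while 6 of the 8 Fanconi genes were below 0 with a median of -0.05, against 0.02 over all genes. Values for the rest were -0.50 (Nbn), -0.18 (Chek2), -0.17 (Mdc1), -0.52 (Xrcc5), -1.35 (Polq), 0.30 (Xrcc4), -0.22 (Parp1), -0.69 (Ung), -1.12 (Neil3), 0.22 (Neil1), -0.28 (Msh6) and -0.37 (Polh) by the authors' deposited table. The difference between subsets was not tested, because the deposited folds carry no standard error. The members were counted because they had passed in TAM, a choice that favours values nearer to 0 elsewhere. Over all genes too, fewer were lower in this subset (1.77%) than in TAM (12.5%). The same counts over all genes lower in TAM were not computed.

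In irradiated granulocytes 14 of the 51 repair genes fell and 1 rose. These are 27.5% and 1.96% of the members, beside 9.9% of 15679 genes tested that were lower and 7.32% that were higher. The members' median log2 fold change was -0.47, against -0.03 over all genes tested. The falls comprised 6 of 12 recombination genes, 2 of 8 Fanconi genes, 2 of 6 end joining genes and 4 of 9 base excision genes. None of the 9 sensor and checkpoint genes, 2 mismatch genes and 4 nucleotide excision genes passed, nor did Polh. The number lower was 7 when every gene with a p-value was adjusted for, 6 at an adjusted p under 0.01 and 0 with Wald statistics divided by their robust SD, which was 2.09.

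Xrcc6 had the lowest Wald statistic of the members in granulocytes, -6.66, at -1.29 (adjusted p = 1.3e-08) in the authors' deposited table, whereas Xrcc5, its obligate partner, had -0.33 (Wald statistic -0.68, adjusted p = 0.71). Xrcc4, the scaffold of the last ligation step, was the only member that rose in any subset, at 0.45 (adjusted p = 0.035, Wald statistic 2.80) in the authors' deposited table. That call was lost when every gene with a p-value was adjusted for (0.069). Lig4, its partner, had 0.64 (adjusted p = 0.45) and Prkdc -0.04 (0.95) in the authors' deposited table. Polq fell at -1.98 (adjusted p = 0.041), and its call too was lost over every gene (0.082).

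Among recombination genes, Exo1 (-2.08, adjusted p = 0.0030), Rad54l (-1.99, adjusted p = 0.0029), Rad51ap1 (-1.90, 0.032), Xrcc2 (-1.57, 0.020), Brca1 (-1.54, 0.049) and Brca2 (-1.09, 0.032) fell in irradiated granulocytes by the authors' deposited table. Of these, Brca1, Brca2 and Rad51ap1 did not pass over every gene with a p-value (0.097, 0.063 and 0.063), and Brca1 was also lost after re-centring (0.058). The Fanconi genes that fell were Fancm, at -2.16 (adjusted p = 0.0024), and Brip1, at -1.30 (adjusted p = 0.036, and 0.073 over every gene), in the authors' deposited table. Fanci, the Fanconi gene of smallest adjusted p in TAM, had -1.48 in granulocytes (adjusted p = 0.066) in the authors' deposited table.

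In base excision, Apex1 (-0.85, adjusted p = 0.0060), Ung (-1.78, 0.040), Parp1 (-0.51, 0.035) and Neil1 (-0.82, 0.0084) fell in irradiated granulocytes by the authors' deposited table, and Ung and Parp1 were lost over every gene (0.079 and 0.069). Neil1, a glycosylase for oxidised bases, was the only member with a call in granulocytes and a Wald statistic of opposite sign in TAM, where it had 0.12 (adjusted p = 0.76) in the authors' deposited table. Neil3 had -1.53 without passing (adjusted p = 0.090).

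In all, 10 repair genes fell in both TAM and granulocytes, which is 38.5% of the 26 that fell in TAM and 71.4% of the 14 that fell in granulocytes. Over all genes, 616 fell in both, which is 29.2% of the 2108 lower in TAM and 39.7% of the 1552 lower in granulocytes; whether the members' shares differ from these was not tested. The 10 were Brca1, Brca2, Rad51ap1, Rad54l, Exo1, Brip1, Xrcc6, Parp1, Apex1 and Ung. A further 16 passed in TAM without passing in granulocytes, 4 (Xrcc2, Fancm, Polq and Neil1) passed as lower in granulocytes without passing in TAM, and 20 were called in no subset. Of the 16, Msh6 had a Wald statistic of -5.18 in TAM and -0.30 in granulocytes in the authors' deposited table. Mdc1 had a Wald statistic of -3.01 in TAM and of 1.87 in granulocytes, where it did not pass (adjusted p = 0.19), in the authors' deposited table. Among the others of the 16, those of recombination had -1.37 (Rad54b), -0.47 (Blm), -0.07 (Palb2) and -0.22 (Xrcc3) on the log2 scale in granulocytes, and those of the Fanconi group -0.84 (Fancb), -0.95 (Fancd2) and 0.24 (Fancl), by the authors' deposited table. Chek1 (-1.41), Chek2 (-0.77), Nbn (-0.32) and Polh (-0.49) were below 0 there without passing, by the authors' deposited table. The differences between subsets were not tested, and the 2 comparisons share most but not all tumours. Every granulocyte library has the number of a TAM library, but only 7 granulocyte libraries stand beside the 10 irradiated TAM libraries.

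**Figure D3:**
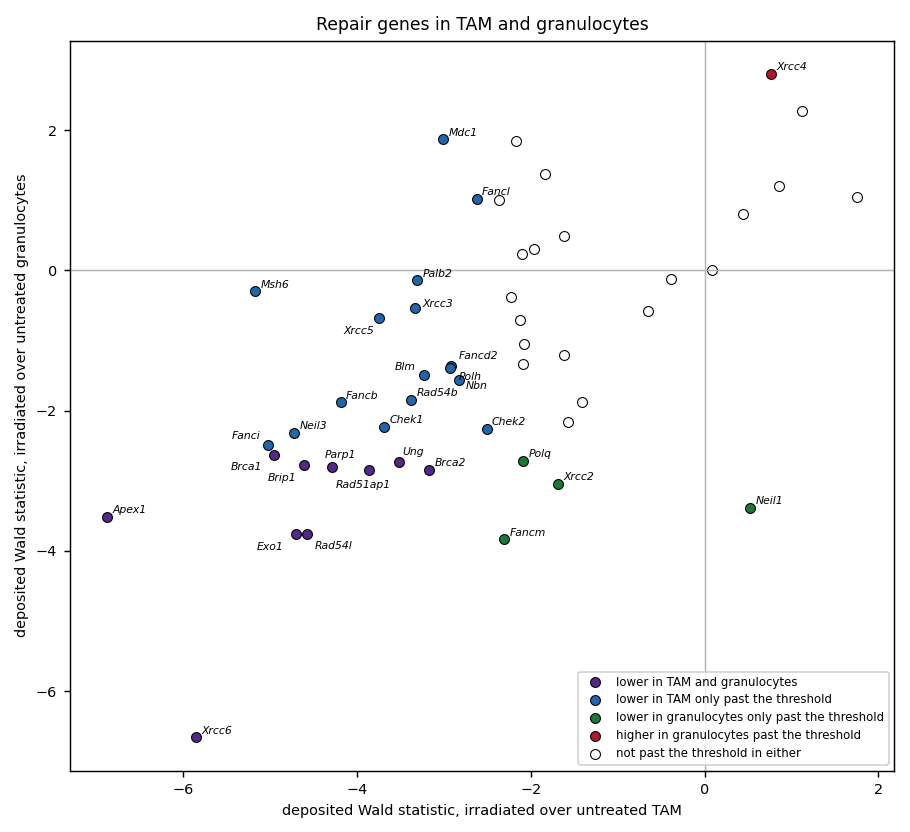
Deposited Wald statistics of the 51 repair genes for irradiated over untreated TAM (x) and granulocytes (y), coloured by which comparison passed an adjusted p of 0.05. Xrcc6 is at the lower left with -5.85 and -6.66, Msh6 is low in TAM alone, and Neil1 is low in granulocytes alone.

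The same pathways hold further genes outside the 51, of which 90 were listed for this purpose. In irradiated TAM 31 of the 90 fell (34.4%, beside 12.5% of all genes) and 4 rose (4.44%, beside 13.9%). In inflammatory monocytes none passed by the authors' DESeq2 test, and at an unadjusted p under 0.05, 9 were lower (10.0%, beside 7.75% of all genes) and 6 higher (6.67%, beside 11.9%). In granulocytes 13 fell (14.4%, beside 9.9%) and 2 rose (2.22%, beside 7.32%). The falls in TAM included 10 of 18 recombination genes and 6 of 15 sensor genes. H2afx, the histone that is phosphorylated around breaks, had -2.12 in TAM, the single-strand binding protein gene Rpa2 -1.65, the fork protection gene Tipin -1.50, the flap nuclease gene Fen1 -1.43 and the replicative ligase gene Lig1 -1.37 in the authors' deposited table. Usp1, which removes ubiquitin from the Fanconi clamp, had -0.99, and the conjugating enzyme gene Ube2t, which puts it on, had -2.08 in TAM and -2.55 in granulocytes in the authors' deposited table. The 13 further nucleotide excision genes held calls in both directions in TAM, with 4 lower (30.8%) and 2 higher (15.4%). Those that fell were Ddb1 (-0.57), a subunit of a ubiquitin ligase that also acts outside repair, Gtf2h4 (-0.57), of the transcription factor TFIIH, Cetn2 (-0.44), a centrin that also serves centrosomes, and the damage recognition gene Rad23b (-0.38), in the authors' deposited table. Those that rose were Xpc (0.58, adjusted p = 0.039), a damage sensor, and the nuclease gene Ercc5 (0.58, adjusted p = 0.045) in the authors' deposited table. The other 2 of the 4 that rose in TAM were the translesion polymerase gene Polk (0.86, adjusted p = 0.0035) and Parg (0.33), which degrades poly(ADP-ribose), in the authors' deposited table. Rad23b, Xpc, Ercc5 and Parg were named after their values were seen, and Polk, Xpc and Ercc5 are also on the list of p53 targets described next. The 2 that rose in granulocytes were Atrip (0.61), the partner of ATR, and Fance (0.48) in the authors' deposited table.

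Other gene groups moved in the same comparisons. All 32 genes of S phase and replication and all 30 of mitosis fell in irradiated TAM, 7 and 6 fell in inflammatory monocytes, and 22 and 28 fell in granulocytes, with no gene of either list called higher. The share of all genes that were lower was 12.5% in the TAM comparison, 1.77% for inflammatory monocytes and 9.9% for granulocytes. Their median log2 fold changes were -1.81 and -2.60 in TAM, -0.52 and -1.26 in inflammatory monocytes, and -1.21 and -2.02 in granulocytes. At an unadjusted p under 0.05 by the authors' DESeq2 test, 14 of the 32 and 28 of the 30 were lower in inflammatory monocytes, beside 7.75% of all genes. At that threshold 2 of the 32 and 0 of the 30 were higher, beside 11.9% of all genes. Of 28 p53 targets, 22 rose and 1 fell in TAM, 7 rose in inflammatory monocytes, and 8 rose and 3 fell in granulocytes. The share of all genes that were higher was 13.9% in the TAM comparison, 4.13% for inflammatory monocytes and 7.32% for granulocytes. The part of cell division in the falls of repair genes was not tested.

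**Figure D4:**
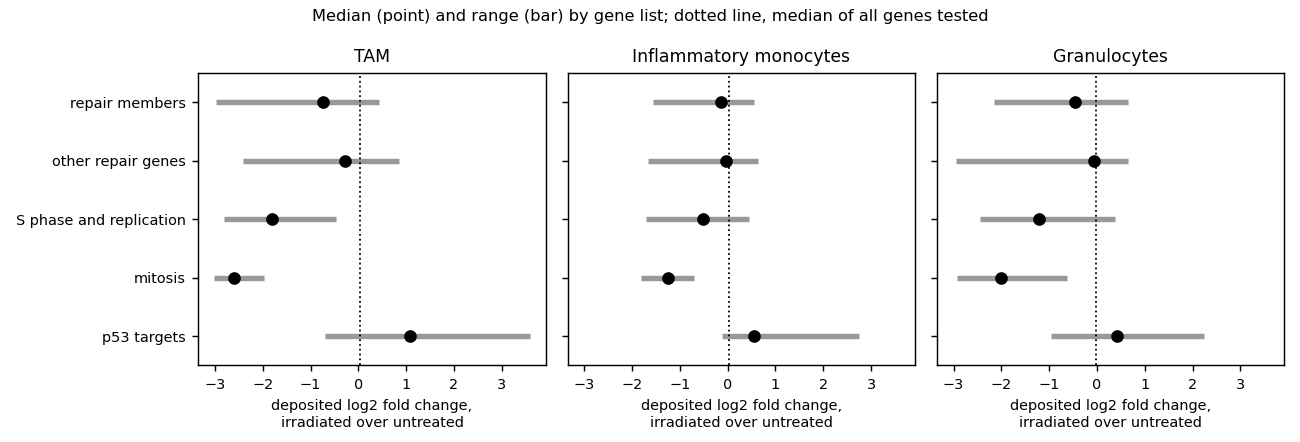
Median (point) and range (bar) of deposited log2 fold changes of irradiated over untreated for the 51 repair genes, the 90 other repair genes and the replication, mitosis and p53 target lists (rows) in the 3 subsets (panels); the dotted line is the median of all genes tested. The repair genes' median (-0.74 in TAM) lies between the median of all genes and that of the replication list (-1.81).

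Some markers of other cells in the gates were called as well, with the direction from the Wald statistic. In the TAM comparison, where 13.9% of all genes were higher and 12.5% lower, 8 of 11 monocyte, 12 of 17 neutrophil and 4 of 5 tested eosinophil markers were higher in irradiated tumours and 5 of 9 dendritic cell markers were lower. Among the neutrophil markers counted as higher, Ngp and Camp had log2 fold changes of -0.59 and -0.77 in the authors' deposited table. Their Wald statistics were 9.2 and 8.66, so fold and statistic disagreed in sign. Called as higher were 2 of 10 epithelial and tumour cell markers (20.0%) and 3 of 13 macrophage markers (23.1%), shares nearer to that of all genes. All 10 epithelial and tumour cell markers had a Wald statistic above 0, however, with a median log2 fold change of 1.52, against 0.03 over all genes. At an unadjusted p under 0.05 by the authors' DESeq2 test, 8 of the 10 were higher. The share of all genes at that threshold was not computed for TAM. The macrophage markers had a median of 0.30, and 4 of the 13 had a Wald statistic below 0. Of 9 fibroblast and endothelial markers 3 were lower and 1 higher, and of 10 lymphocyte markers 1 was lower (10.0%), in TAM. In inflammatory monocytes, where 4.13% of all genes were higher, 9 of 13 macrophage, 8 of 17 neutrophil, 2 of 5 eosinophil and 1 of 10 lymphocyte markers were higher, and no marker of the other lists passed. In granulocytes, where 7.32% of all genes were higher and 9.9% lower, 6 of 13 macrophage, 5 of 11 monocyte, 2 of 17 neutrophil (11.8%) and 1 of 5 eosinophil markers were higher, 1 monocyte marker and 3 of 9 fibroblast and endothelial markers were lower, and no dendritic, lymphocyte or epithelial marker passed. The tables hold no level per subset, so the labels of the gates could not be checked against marker levels, and the part of a shift in cell makeup in the falls of repair genes was not tested.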

How the data were processed

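Per the submitters' processing notes, the build was mm39 (GRCm39) and the tools included DESeq2 1.28.1 in R 4.0.2, STAR 2.7.6a and fastp 0.20.1, and Nextera XT libraries were made from picogram amounts of cDNA, per the labels' protocols. How reads were counted, on which strand and with which annotation is not given in the sources used here. The authors deposited 3 tables of comparisons. The mean normalised count is a signal averaged by the authors, identical in the 3 tables. The authors' log2 values of irradiated over untreated are read as shrunken, which no source used here states. For 16 genes called in TAM their sign differs from that of the Wald statistic. Fold and statistic are thus not the same estimate, and the difference in sign does not establish shrinkage. The authors also give the Wald statistic, a score, and the deposited p-values equal its two-sided normal p within 0.0021 on the log10 scale. Their adjusted p-value covers all genes they tested. Among the 153 values of the members, fold and statistic differ in sign in 1, Ercc2 in granulocytes, with both near 0.

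Members were selected by symbol, and counts, medians and Benjamini-Hochberg alternatives were computed with Python 3.11.15, pandas 2.3.3, numpy 2.4.6 and scipy 1.17.1. Calling was checked on simulated statistics (200 of 200 altered genes found in each comparison, with 12 to 17 false). The altered statistics were shifted far beyond the simulated noise. The check therefore covers the calling steps only, not the reliability of member calls nearer the threshold. No test of a list was made. The members, pathways and other lists were chosen with earlier results of these data known. Members past an adjusted p of 0.05 in any comparison were named with values, and further repair genes by smallest p, not all of which are reported here. The first promoter listed for a symbol was used. The E2F-type windows were chosen after their matches were seen.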

Additional observations from a re-analysis of the deposited data

How the results depend on the processing

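The deposited calls were recomputed with 6 alternatives, namely a stricter adjusted p (0.01), a fold criterion (1 or more on the log2 scale), adjustment with no filter on low means, low means (under 50) left out, Wald statistics divided by their robust SD, and re-centring on the median statistic (TAM 0.24, inflammatory monocytes 0.09, granulocytes -0.08). With division by the robust SD, 0 members were lower in TAM in place of 26, and in granulocytes 0 were lower and 0 higher in place of 14 and 1. Under the other alternatives the members lower in TAM numbered 18 to 28, and 0 were higher. The share of all genes called under each alternative was not computed. Whether members gained or lost calls more than genes at large is therefore unknown. In granulocytes the count lower became 6 at an adjusted p under 0.01 and 7 with no filter on low means, and the count higher became 0 under both and with the fold criterion. In inflammatory monocytes 1 member, Exo1, was lower with low means left out and with re-centring. No call of a member changed direction under any of the 6. This was fixed in advance, since none of the 6 can reverse the sign of a statistic that far from 0. Leaving out a library could not be run, since the tables hold none. No paired analysis was possible because the tables hold no values of single libraries and irradiated and untreated tumours have different numbers. The unknown depth per library limits members of low mean count, such as Bard1 (11.6) and Ung (16.0).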

Other observations

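Exons of 25 of the 51 repair genes share bases with exons of another annotated gene in GENCODE M21, an annotation of GRCm38, and for 8 of them the share with 1 such gene is at least 10%. Since the strand used in counting is not given, reads from such stretches may belong to either gene. The largest share is that of Apex1, of whose exon bases 61.7% overlap Pip4p1 on the opposite strand, and Pip4p1 had a log2 fold change of 0.04 in TAM (adjusted p = 0.88) and of -0.16 in granulocytes (adjusted p = 0.52) in the authors' deposited table. Rad54b shares 38.0% with Fsbp on its own strand, whose log2 fold change in TAM was -2.48 in the authors' deposited table, which rounds to the value of Rad54b, and reads of the pair cannot be told apart here. Rad54l shares 15.4% with Lrrc41 and Fanci 14.2% with Polg, both on the opposite strand, with 0.07 and 0.23 in TAM and no call in the authors' deposited table. For Lig3, 27.9% overlap Rffl, which rose in TAM (0.82, adjusted p = 1.2e-05 in the authors' deposited table) while Lig3 did not pass.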
